A study of Mus musculus with 2 samples.

Results

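The fatty acid elongases and desaturases are the enzymes that lengthen fatty acids and place double bonds in them, and 10 of their genes were followed in mouse liver with and without FHL2. They are the elongases Elovl1, Elovl2, Elovl3, Elovl5, Elovl6 and Elovl7 and the desaturases Fads1, Fads2, Scd1 and Scd2, chosen by name with their levels and differences in earlier results of these data known. Each was read from the probe set annotated to that gene alone with the highest mean of both arrays, and each had 1 such probe set. The 10 stand among 19938 genes with a probe set of their own.

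The samples were 1 pool labelled as homozygous FHL2 knockout (genotype FHL2-/-) and 1 wild-type (WT) pool. Each pool held left-lobe liver RNA of 3 male mice aged 10 to 11 weeks on a Hybrid Black Swiss/129-SV/J background, and was measured on 1 Affymetrix expression array. FHL2 consists of LIM domains, zinc-binding modules through which it contacts transcription factors and other partners. The labels name no promoter or Cre that would limit the knockout to a cell type and no further treatment, and they do not say which part of the gene was deleted.

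There were no replicates, so no p-value is given, and each difference is one between these pools. Values are on a log2 scale. A difference is the FHL2 KO-labelled value minus the WT value. The array medians were 5.71 in the FHL2 KO-labelled pool and 5.76 in the WT pool. Where a gene had several probe sets, their differences had an SD of 0.143 around that gene's mean. This is the sole repeat in the data and covers neither mice nor hybridisations. Fhl2 itself was at 5.33 in the FHL2 KO-labelled pool and 5.30 in the WT pool, below the level filter of 5.44 used here. This probe set does not check the genotype, since its place relative to the deleted part is not known.

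Fatty acid elongases catalyse the first and rate-limiting condensation of an elongation cycle in the endoplasmic reticulum, in which malonyl-CoA supplies the added carbons. Desaturases of the same membrane take electrons from cytochrome b5 and insert double bonds. In liver, Elovl6 and the stearoyl-CoA desaturases finish the products of fatty acid synthase into stearate, palmitoleate and oleate. Fads2, Elovl5, Fads1 and Elovl2 turn the essential fatty acids of the diet into arachidonic acid and docosahexaenoic acid.

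The members differed in direction and in size. Elovl6 was 1.56-fold higher in the FHL2 KO-labelled pool, Scd2 was 1.25-fold higher and Elovl3 was 1.21-fold lower. The 4 genes of the polyunsaturated route and Scd1, the main liver desaturase of saturated fatty acids, all differed by less than the 0.143 SD between probe sets. So did 59.75% of all genes past the level filter, so no stability of these genes in particular is read from it. Of the 10 members, 7 were higher and 3 lower in the FHL2 KO-labelled pool, and the 7 include Elovl7, which lay below the level filter. Of all genes, 59.5% past the level filter and 53.6% without it were higher.

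**Figure D1:**
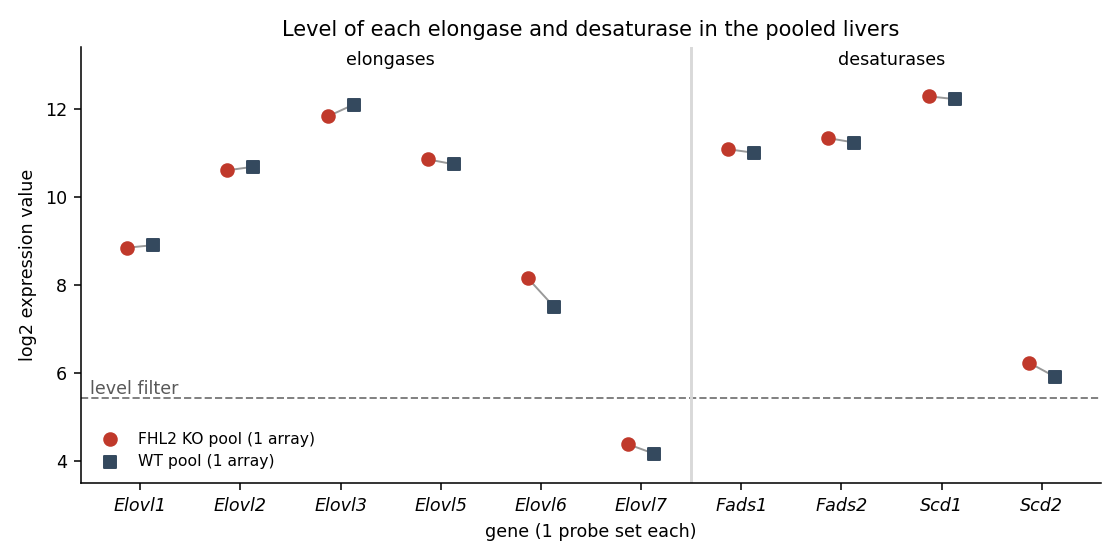
Log2 expression value (vertical axis) of each elongase and desaturase (horizontal axis) in the FHL2 KO-labelled pool (red circles) and the WT pool (dark squares), 1 array each, with the level filter of 5.44 dashed. Elovl6, at 8.16 and 7.51, has the widest gap of the 10 genes, and Elovl7 lies below the filter in both pools. Heights of different genes come from different probe sets and are not comparable.

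Elovl6, the elongase that takes palmitate to stearate, was at 8.16 in the FHL2 KO-labelled pool, against 7.51 in the WT pool. This is a difference of 0.64, or a signal of 285 against 182 on the linear scale of the array. It was the 54th highest difference of the 11924 genes past the level filter, and 83 of them (0.696%) lay as far from 0 in either direction. The genes past the filter were put in 10 equal classes of level, and in the class of Elovl6 the 99th percentile of the difference was 0.48. The call at 1.5-fold, which is 0.585 on the log2 scale, was close. When the trend of the difference on level was removed, the value was 0.58, just short of it.

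Scd1 and Scd2 put the double bond into stearate and palmitate that makes oleate and palmitoleate. Scd1 was at 12.29 in the FHL2 KO-labelled pool and 12.23 in the WT pool, a difference of 0.06. Scd2, the isoform best known from brain and from liver before weaning, was at 6.24 in the FHL2 KO-labelled pool, against 5.92 in the WT pool. Its difference of 0.32 lay inside the 5th to 95th percentile of genes of its level class, which ran from -0.37 to 0.36. Elovl6, Scd1 and Scd2 act on the same products of fatty acid synthase and had differences of 0.64, 0.06 and 0.32. All 3 were above 0, as were 59.5% of all genes past the level filter. The 0.06 of Scd1 was less than the median distance from 0 in its level class, 0.078. No shared direction is read from these 3 genes.

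The polyunsaturated route varied least of the 3 groups described here. Fads2, which makes its first and rate-limiting double bond, was at 11.34 in the FHL2 KO-labelled pool and 11.24 in the WT pool. Elovl5, the elongase of the next step, was at 10.86 in the FHL2 KO-labelled pool and 10.75 in the WT pool. Fads1, which completes arachidonic acid, was at 11.09 in the FHL2 KO-labelled pool and 11.01 in the WT pool. All 3 were slightly higher in the FHL2 KO-labelled pool, with differences of 0.10, 0.11 and 0.08. Elovl2, needed for the precursors of docosahexaenoic acid, was at 10.61 in the FHL2 KO-labelled pool and 10.69 in the WT pool, a difference of -0.08. The 4 genes thus spanned -0.08 to 0.11. Over all genes past the level filter, 59.7% lay within 0.143 of 0, the SD between probe sets. The 4 genes were in the brightest level class, whose median distance from 0 was 0.078, and all 4 lay further from 0 than that. The 25th to 75th percentile of that class ran from -0.038 to 0.108. Fads2 and Fads1 were inside this range, Elovl5, at 0.111, just above it and Elovl2, at -0.080, below it.

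Among the elongases of saturated and monounsaturated very long chains, Elovl3 and Elovl1 were lower in the FHL2 KO-labelled pool. Of all genes past the level filter, 40.4% were lower, and the -0.06 of Elovl1 was within the SD between probe sets. Elovl3, whose liver expression in mice is higher in males and follows the day-night cycle, was at 11.83 in the FHL2 KO-labelled pool, against 12.10 in the WT pool. Its difference of -0.27 lay between the 1st and the 5th percentile of genes of its level class, -0.30 and -0.18. It was -0.23 with both arrays shifted to a common median, which is short of 1.2-fold, and -0.29 with the trend on level removed, which is past it. Elovl1, a broadly expressed elongase whose products go into sphingolipids, was at 8.85 in the FHL2 KO-labelled pool and 8.91 in the WT pool. Elovl7, which lengthens saturated chains, was at 4.39 in the FHL2 KO-labelled pool and 4.17 in the WT pool. It was the 1 member below the level filter, so its difference of 0.21 is uncertain in size and in direction. The member nearest above the filter was Scd2, with a mean of 6.08.

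**Figure D2:**
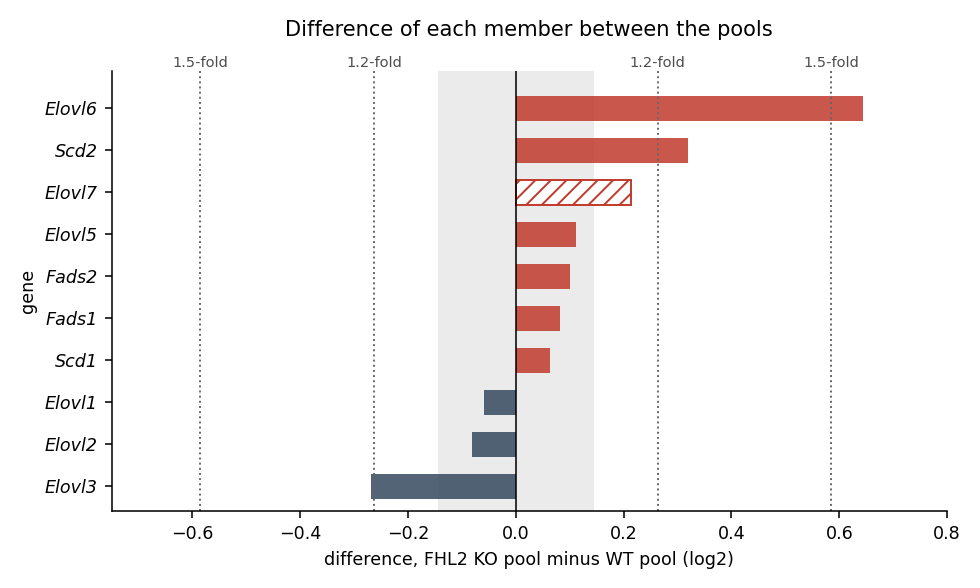
Difference of each member (FHL2 KO-labelled pool minus WT pool, log2, horizontal axis), ordered by its value, with red bars for genes higher and dark bars for genes lower in the FHL2 KO-labelled pool. The grey band is the 0.143 SD between probe sets of 1 gene, dotted lines mark 1.2-fold and 1.5-fold, and hatching marks Elovl7, below the level filter. Of the 10 bars, 6 end inside the band, where 59.75% of all genes past the level filter lay. Elovl6 is the only member past 1.5-fold. Of all genes past the filter, 0.621% were at least 1.5-fold higher and 0.335% at least 1.5-fold lower.

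Counts over the 9 members past the level filter were 6 above 0 and 3 below 0, where 59.5% of all genes past the filter were above 0 and 40.4% below it. At least 1.2-fold higher were 2 of the 9, Elovl6 and Scd2, where 8.66% of all genes were. At least 1.2-fold lower was 1 of the 9, Elovl3, where 6.16% of all genes were. At least 1.5-fold higher was 1 member, where 0.621% of all genes were, and at least 1.5-fold lower were 0 members, where 0.335% of all genes were. Since the members were listed with this comparison known, nothing is read from these counts. The median difference of the 9 was 0.08, and that of all genes past the filter 0.04. All 4 desaturases were above 0 with a median of 0.09, and 2 of the 5 elongases past the filter were above 0 with a median of -0.06. With Elovl7, below the filter, 3 of 6 elongases were above 0 and the median turned to 0.03.

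The background counts depend on the scaling of the arrays. At 1.5-fold there were 74 higher and 40 lower genes, 64.9% of them higher, and with a common median 90 higher and 30 lower, 75% higher. At 1.2-fold there were 1033 higher and 734 lower genes, 58.5% of them higher. The counts were 1511 and 515 with a common median, 74.6% higher, and 778 and 848 with the trend on level removed, 47.9% higher. No member had the other sign under either scaling.

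**Figure D3:**
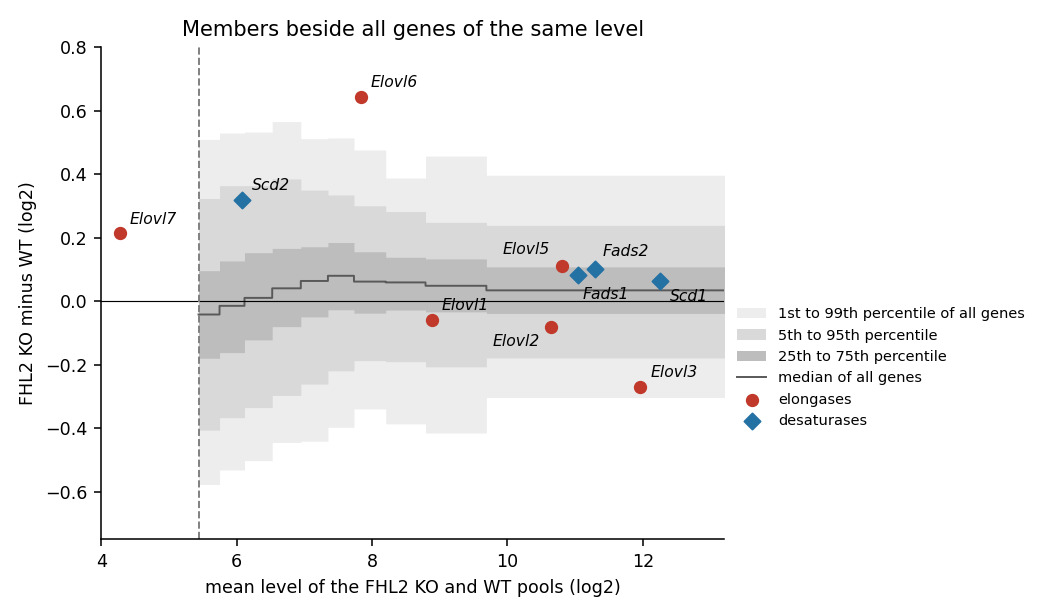
Difference between the pools (FHL2 KO-labelled minus WT, log2, vertical axis) against the mean level of both pools (log2, horizontal axis), for elongases (red circles) and desaturases (blue diamonds). Grey bands show percentiles of all genes in each of 10 equal level classes past the filter, and the dashed line is the filter. Elovl6 lies above the 99th percentile of its class, Elovl3 between the 1st and 5th, and Fads1, Fads2 and Scd1 inside the 25th to 75th. Elovl5 and Scd2 lie between the 75th and 95th of their classes, and Elovl1 and Elovl2 between the 5th and 25th.

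The promoter of Elovl6 is shown because it had the widest difference of the members. Those of Elovl5 and Fads2 are shown because they act at successive steps of the polyunsaturated route and differed by less than the SD between probe sets. Each runs from 250 bases before to 50 bases after the start of a RefSeq transcript, 5′ to 3′, from RefSeq on build GRCm38.p6. Capitals mark motifs found. Of the 10 members, 6 had an entry in this table, with 8 windows in all. Elovl3, Fads1, Scd1 and Scd2 had none.
Elovl6 promoter, chr3:129532136-129532435, plus strand: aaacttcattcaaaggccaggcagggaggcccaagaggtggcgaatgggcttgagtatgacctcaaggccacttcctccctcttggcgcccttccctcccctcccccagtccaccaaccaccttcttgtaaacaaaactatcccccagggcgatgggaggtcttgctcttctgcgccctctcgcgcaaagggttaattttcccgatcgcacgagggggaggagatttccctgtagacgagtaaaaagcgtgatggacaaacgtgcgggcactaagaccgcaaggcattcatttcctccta
Elovl5 promoter, chr9:77917115-77917414, plus strand: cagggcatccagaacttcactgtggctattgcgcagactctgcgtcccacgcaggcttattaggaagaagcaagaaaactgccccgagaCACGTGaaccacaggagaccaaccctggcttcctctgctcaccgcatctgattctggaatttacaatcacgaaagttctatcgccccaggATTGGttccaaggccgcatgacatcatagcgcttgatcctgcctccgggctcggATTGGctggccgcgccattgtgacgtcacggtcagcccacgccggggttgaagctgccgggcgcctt
Fads2 promoter, chr19:10101454-10101753, minus strand: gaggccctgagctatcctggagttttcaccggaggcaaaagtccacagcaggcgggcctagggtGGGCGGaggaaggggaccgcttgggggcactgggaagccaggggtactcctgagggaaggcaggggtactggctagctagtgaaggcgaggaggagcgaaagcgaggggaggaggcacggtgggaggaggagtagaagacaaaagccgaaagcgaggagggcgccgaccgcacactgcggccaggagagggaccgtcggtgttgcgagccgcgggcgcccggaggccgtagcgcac

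These windows were searched on both strands for 6 motifs of factors known from lipid metabolism or from promoters in general. The SREBP site TCACNCCAC was in 1.24% of all 32851 promoter windows, the E-box CACGTG in 7.15%, the CCAAT box CCAAT in 37.4% and the GC box GGGCGG in 35.7%. Direct repeats of the nuclear receptor half-site AGGTCA, spaced by 1 and by 4 bases, were in 0.0396% and 0.0152%. No motif includes another, and matches may overlap. The Elovl6 window held 0 matches to these letters. The Elovl5 window held 1 E-box and 2 CCAAT boxes on the minus strand, whose leftmost bases lay 161, 71 and 17 bases before the start. The Fads2 window held 1 GC box, 186 bases before the start. In the windows not shown, GC boxes numbered 5 and 2 in those of Elovl1, 5 and 0 in those of Elovl2 and 3 in that of Elovl7, and 1 CCAAT box lay in Elovl1, overlapping a GC box. The SREBP site was in 0 of the 8 windows. A match is a run of letters and not a binding site.

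The desaturase genes lie in clusters. In the mouse gene order of GRCm38.p6, Fads3, Fads2 and Fads1 follow each other on chromosome 19 with 0 protein-coding genes between them, and so do Scd3, Scd2, Scd4 and Scd1 further along. Fads3, a family member that acts on sphingoid bases, was at 6.46 in the FHL2 KO-labelled pool and 6.40 in the WT pool, a difference of 0.06 beside the 0.10 of Fads2 and the 0.08 of Fads1, all within the SD between probe sets. In the other cluster Scd3, the isoform known from mouse sebaceous glands, was at 4.65 in the FHL2 KO-labelled pool and 4.83 in the WT pool. Scd4, known from mouse heart, was at 4.88 in the FHL2 KO-labelled pool and 5.15 in the WT pool. Both were below the level filter, and their differences were -0.18 and -0.28. The Scd genes are close copies, so their transcripts can share probe sequences, and the value of 1 copy is uncertain.

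Of the other genes of these families, Fads6, a desaturase-like gene, was at 9.18 in the FHL2 KO-labelled pool and 8.98 in the WT pool, a difference of 0.20. Degs1, which puts the double bond into ceramide, was at 8.78 in the FHL2 KO-labelled pool and 8.66 in the WT pool, a difference of 0.12. Its relative Degs2 was at 5.11 in the FHL2 KO-labelled pool and 5.25 in the WT pool. Elovl4, the elongase of very long chains in retina and skin, was at 4.59 in the FHL2 KO-labelled pool and 4.63 in the WT pool. Degs2 and Elovl4 lay below the filter. Of the 7 other family genes, 3 passed the filter and were above 0, and the 4 that did not pass it were below 0. Of all genes, 59.5% past the filter and 53.6% without it were above 0. Their median difference also varied with level, from -0.04 in the dimmest of the 10 classes past the filter to 0.08 in the 6th and 0.03 in the brightest. Nothing is read from the split of the 7 genes.

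The rest of the pathway was described with 5 lists of 50 genes, 41 of which passed the filter. Of the 41, 28 were above 0 and 13 below 0, with a median of 0.06, near the 0.04 of all genes. At least 1.2-fold higher was 1 of them, Thrsp, and at least 1.2-fold lower 1, Abcd2. Of all genes, 59.5% were above 0, 8.66% at least 1.2-fold higher and 6.16% at least 1.2-fold lower. The elongation cycle after the condensing step had 5 of 7 genes past the filter, 4 above 0, with a median of 0.09. Tecr, the reductase that ends each cycle, was at 11.01 in the FHL2 KO-labelled pool and 10.75 in the WT pool, a difference of 0.26. Hacd2, a dehydratase of the cycle, was at -0.21 and its relative Hacd3 at 0.10. Electron supply, the cytochromes b5 and their reductases, had 6 of 7 past the filter and a median of 0.02. There the outer mitochondrial cytochrome b5 gene Cyb5b was at 0.15, and the reductase genes Cyb5r4 and Cyb5rl at -0.10 and 0.07.

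Substrate supply, from citrate export to acyl-CoA synthetases, had 9 of 12 genes past the filter, 6 above and 3 below 0, with a median of 0.12. Acacb, which makes malonyl-CoA at mitochondria, was at 8.66 in the FHL2 KO-labelled pool and 8.41 in the WT pool, a difference of 0.26. Acss2 and Acly, which make acetyl-CoA from acetate and citrate, were at 0.24 and 0.20. Fasn, fatty acid synthase, whose product palmitate Elovl6 lengthens, was at 9.73 in the FHL2 KO-labelled pool and 9.84 in the WT pool. Its difference was -0.11, beside 0.64 for Elovl6, and Fasn was picked out after its value was seen. A link between these genes was not tested.

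Peroxisomal steps, which shorten very long chains and finish docosahexaenoic acid, had 7 of 9 genes past the filter, 6 of them above 0, with a median of 0.06. Abcd2, a peroxisomal importer of very long chain acyl-CoA, was at 6.22 in the FHL2 KO-labelled pool, against 6.91 in the WT pool, and was 1.62-fold lower. The thiolase Acaa1b was at 0.15 and the bifunctional enzyme gene Ehhadh also at 0.15. Among 14 of 15 regulators past the filter, 8 were above and 6 below 0, with a median of 0.07. Thrsp, a lipogenic protein under thyroid hormone and carbohydrate control, was at 10.92 in the FHL2 KO-labelled pool and 10.53 in the WT pool, or 1.31-fold higher. The nuclear receptor gene Pparg was at 0.26, and Insig1, which holds back SREBP processing, at -0.25. Srebf1, whose product SREBP1 drives Elovl6, Scd1 and the Fads genes in liver, was at 9.73 in the FHL2 KO-labelled pool and 9.86 in the WT pool, a difference of -0.13. Srebf1 was picked out after its value was seen, and the part of SREBP1 in the difference of Elovl6 was not tested.

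**Figure D4:**
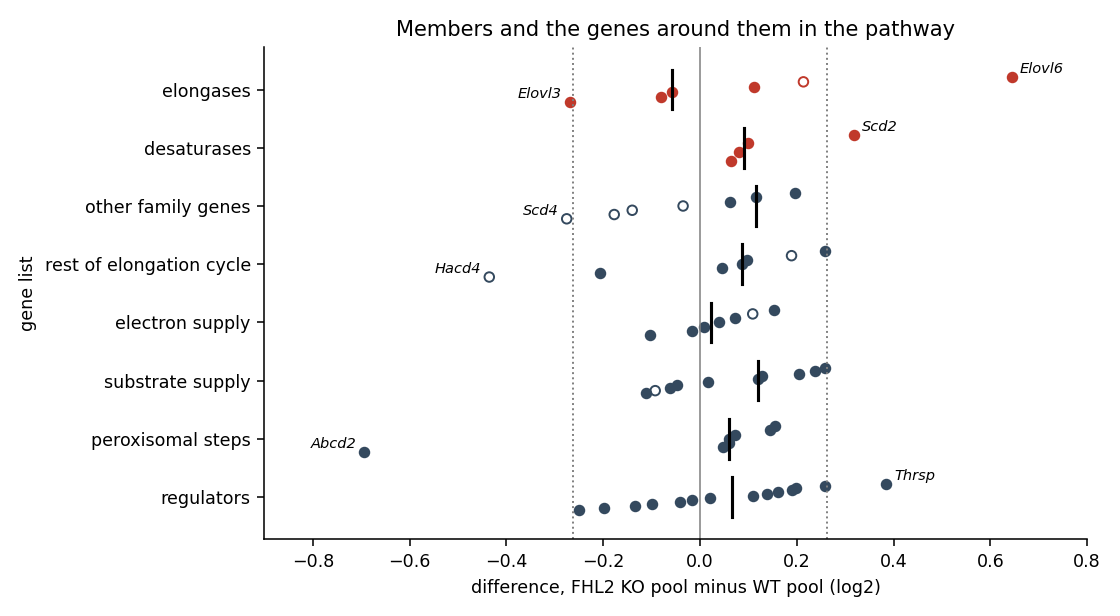
Difference of each gene (FHL2 KO-labelled pool minus WT pool, log2, horizontal axis) by gene list, members in red and other lists in dark blue. Open circles lie below the level filter, black bars are medians of the genes past it, and dotted lines mark 1.2-fold. Elovl6 stands further from 0 than all plotted genes but Abcd2, which lies on the other side, at -0.69.

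Cell type markers were set beside the members. Of all genes, 59.5% past the level filter and 53.6% without it were higher in the FHL2 KO-labelled pool. Of the markers measured, 3 of 6 for fat cells, 3 of 5 for bile duct and 2 of 3 for lymphocytes passed the filter. So did 1 of 2 for neutrophils, 2 of 3 for muscle and 1 of 2 for pancreas. The counts and sums below include those that did not pass it. Hepatocyte markers, 8 of 9 with a probe set, ran from 10.83 to 13.67 in the FHL2 KO-labelled pool and from 10.68 to 13.74 in the WT pool. Their summed linear signal was 62913 in the FHL2 KO-labelled pool and 63048 in the WT pool, and 4 were higher and 4 lower. Markers of fat cells, which also use Scd2 and Elovl6, had 6 of 7 measured, from 3.64 to 6.18 in the FHL2 KO-labelled pool and from 3.75 to 6.50 in the WT pool. Their summed signal was 232 in the FHL2 KO-labelled pool and 257 in the WT pool, and 5 of the 6 were lower. The defining fat cell marker Adipoq, picked out as such, was at 3.64 in the FHL2 KO-labelled pool and 3.75 in the WT pool, below the filter. All 7 Kupffer cell markers were lower in the FHL2 KO-labelled pool, with a summed signal of 2067 in that pool and 2331 in the WT pool. Endothelial markers, with 4 of 5 higher, summed to 2672 in the FHL2 KO-labelled pool and 2446 in the WT pool. Stellate cell markers, with 4 of 6 lower, summed to 2193 in the FHL2 KO-labelled pool and 2322 in the WT pool. Lymphocyte markers, with 2 of 3 lower, summed to 175 in the FHL2 KO-labelled pool and 198 in the WT pool. Bile duct markers, with 4 of 5 higher, summed to 269 in the FHL2 KO-labelled pool and 260 in the WT pool. The 1 red cell marker measured, Alas2, was at 9.89 in the FHL2 KO-labelled pool and 9.60 in the WT pool. Neutrophil, muscle and pancreas markers, 7 measured in all, summed to between 0.927 and 0.941 of the WT signal in the FHL2 KO-labelled pool. Lower were 2 of 2 for neutrophils, 2 of 3 for muscle and 2 of 2 for pancreas. The part of these cells in the differences of Elovl6, Scd2 and Elovl3 was not tested, and fewer cells of a type and less RNA per cell cannot be told apart in pooled tissue.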

How the data were processed

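The deposited table holds 1 log2 expression value per probe set and array. Affymetrix Expression Console 1.0, RMA and Partek 6.4 are the tools in the submitters' processing notes, without their role or order. The settings and the genome build were not given in the sources used here. Per the labels, 300 ng of total RNA per pool was made into biotin-labelled cDNA. RMA compresses differences of dim transcripts, and the table carries no detection call. The number of arrays limits the precision.

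Of 28853 probe sets, 21789 were annotated to exactly 1 gene, and a gene was represented by the one with the highest mean. The level filter was the 40th percentile of these means, 5.44. Differences were taken without further scaling (Python 3.11.15, pandas 2.3.3, statsmodels 0.14.6 for lowess with a span of 0.3). The steps returned known folds added to a copy of the WT values without noise, which checks the steps and not the differences found. The SD of 0.143 comes from 660 genes with 1809 probe sets.

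Members and lists were chosen with earlier results of these data known. Named genes are all members, other family genes, Fhl2 and the 3 genes furthest from 0 in each pathway list. Others are said to be picked out. Alternatives were a common median, lowess, the mean over probe sets, the probe set with the lowest mean, no level filter, and a filter at the 60th percentile.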

Additional observations from a re-analysis of the deposited data

How the results depend on the processing

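No paired analysis was possible because each group holds 1 array. Elovl6 was the 1 member past 1.5-fold, and the count was 0 with the trend on level removed, where Elovl6 was at 0.58 since the smoothed difference at its level was subtracted. The other counts of members (above 0, past 1.2-fold) and the members' median stayed within 1.5 times the reported count or within the 0.143 SD between probe sets. Past 1.2-fold were 3 members, 2 with a common median, where Elovl3 was at -0.23, and 2 with the filter at the 60th percentile, which Scd2 did not pass. The largest move of a member was 0.06, and none of the 10 took the other sign under these alternatives. Choosing the probe set cannot move a member, since each had 1. The median of the elongases was 0.03 without the level filter, against -0.06 with it. Of list medians, the other family genes were at -0.03 without the level filter, against 0.12 with it. The feeding list was at 0.02 with the filter at the 60th percentile, against -0.17, and bile duct markers were at -0.11, against 0.15. Over all genes, 114 were past 1.5-fold and 1767 past 1.2-fold. Without the level filter these were 286 and 3759, and with the filter at the 60th percentile 55 and 881, since more or fewer genes are counted.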

Other observations

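A pair of further lists touches Elovl3 and Elovl6 by known regulation. Male-biased liver genes, a class to which Elovl3 belongs in mice, had 10 of 10 past the level filter, 3 above and 7 below 0, with a median of -0.06 against 0.04 for all genes, of which 40.4% were below 0. The glucuronosyltransferase gene Ugt2b38 was at 10.84 in the FHL2 KO-labelled pool and 11.22 in the WT pool, or 1.30-fold lower. The urinary protein gene Mup3 was at -0.22 and the oxysterol hydroxylase gene Cyp7b1 at -0.19, beside -0.27 for Elovl3. Cyp2d9, Slco1a1, Cyp4a12b and Cyp4a12a, also below 0, were at -0.03, -0.05, -0.07 and -0.09, within the SD between probe sets. Of the 3 genes above 0, the peroxisomal hydrolase gene Nudt7 was at 0.18, Selenbp2 at 0.13 and Hsd3b5 at 0.08. Apart from Ugt2b38, Mup3 and Cyp7b1, the genes of this list were picked out after their values were seen. No shared direction is read from the list, and its bearing on Elovl3 was not tested.

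The list of genes that respond to feeding or fasting in liver, as Elovl6 does, mixes genes high in either state, so no direction is read from it. Of 7 past the filter, 3 were above and 4 below 0. Angptl4, an inhibitor of lipoprotein lipase that is high in fasting, was at 8.52 in the FHL2 KO-labelled pool and 7.88 in the WT pool, or 1.56-fold higher. Pck1, a gluconeogenic enzyme high in fasting, was at 12.32 in the FHL2 KO-labelled pool and 11.90 in the WT pool. Pnpla3, a lipid droplet protein high after feeding, was at 5.55 in the FHL2 KO-labelled pool and 5.91 in the WT pool, or 1.28-fold lower. Igfbp1 and Pdk4, both also high in fasting, were lower in the FHL2 KO-labelled pool, at -0.29 and -0.24, and Cpt1a, likewise high in fasting, was at 0.22. These 3 were picked out after their values were seen. Feeding state and time of death are not in the labels used here, and their part in the values was not tested.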
